A study of Mus musculus with 17 samples.

Results

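G proteins, RGS proteins, G protein-coupled receptor kinases (GRKs) and arrestins are the parts of a cell that pass on, shorten and stop the signal of a receptor such as CXCR4. They were described here as 62 protein-coding genes of 55335 genes in the count files of sorted mouse bone stromal cells. The members were taken by gene symbol alone: 16 G alpha subunits, 5 G beta subunits, 12 G gamma subunits, 6 GRKs, 21 RGS proteins and the 2 beta-arrestins.

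A G protein is a complex of an alpha subunit, which binds GDP or GTP, with a beta and a gamma subunit that act as one unit. CXCR4, the receptor of the chemokine CXCL12, activates mainly the inhibitory class of alpha subunits (encoded by Gnai1, Gnai2 and Gnai3), and RGS proteins end that signal by speeding GTP hydrolysis. GRKs phosphorylate the cytoplasmic tail of the active receptor, and the beta-arrestins then bind it, uncouple it from G proteins and carry it into the cell. The 1013 allele of Cxcr4 encodes a receptor whose tail is cut short, as in WHIM syndrome, so that this last step is impaired and the receptor stays active.

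RNA was sequenced from osteoprogenitor cells (OPCs, sorted as CD51+ cells with or without PDGFRα that lack Sca-1) and skeletal stromal/stem cells (SSCs, which carry Sca-1, CD51 and PDGFRα) of the collagenase-digested, flushed long bones of female littermates aged 8 to 12 weeks, after CD45+, TER119+ and CD31+ cells were gated out. The mice were Cxcr4+/+ (WT), heterozygous Cxcr4+/1013 (+/1013) or homozygous Cxcr41013/1013 (1013/1013), the mutants carrying the knock-in in every cell of the body and not in bone cells alone. The 6 groups held 3 libraries each, except 1013/1013 SSCs with 2. Each library was a pool of cells from 3 mice, so the spread between libraries is that between pools.

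Depth was 64099849 to 92683497 gene counts in OPC libraries and 44217695 to 50509592 in SSC libraries, and no batch is given in the labels, so cell type and library set cannot be told apart. Ly6a, which encodes Sca-1, was at 0.569 to 12.4 CPM in OPCs and 386 to 1450 in SSCs, and Pdgfra at 54.8 to 149 and 340 to 522, as the gates would have it, while Itgav, which encodes CD51, was at 28.0 to 68.7 and 17.8 to 59.7 (CPM, counts of a gene as a share of the library, scaled by the trimmed mean of M values, TMM, over all 17 libraries). Collagen I transcripts (Col1a1 with Col1a2) made up 16.1% to 38.7% of OPC counts and 0.563% to 2.78% of SSC counts. In 3 libraries, OPC WT 3, OPC 1013/1013 2 and SSC WT 3, the summed level of 12 leukocyte markers was 3442 to 10142 CPM, against 44.7 to 915 CPM in the other 14. Ptprc, Pecam1, Kit and Tfrc, which mark cells outside the gates, summed to 29.0 to 216 CPM in OPCs and 8.66 to 240.04 in SSCs. For the other marker lists, the summed level of erythroid genes was 7.82 to 3154 CPM in OPCs and 111 to 879 in SSCs. In the same order, megakaryocyte and platelet genes were at 2.99 to 18.03 and 10.4 to 28.3 CPM, endothelial genes at 1.97 to 48.9 and 20.9 to 126, mural and smooth muscle genes at 260.3 to 1321 and 147 to 554, skeletal muscle genes at 30.5 to 397 and 3.58 to 125, neural and glial genes at 55.4 to 260.03 and 1.89 to 29.98. In SSCs, WT libraries also stood apart from the mutant ones in general measures: 21449 to 22599 genes with a count against 15748 to 19227, and 3.68% to 4.15% against 1.5% to 2.69% of reads outside annotated genes. Cxcr4 transcripts do not check the genotype, since the allele changes the coding sequence and not the gene's presence.

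The members together took 0.161% to 0.308% of the counts of a library. Of the 62, 36 had more than 3 counts in every library, and 3 (Gnat3 of taste cells, the kinase Grk1 and Rgs21) had 0 counts in all 17, which allows up to 3 counts or 0.0407 to 0.0628 CPM in a library. Gngt1, a gamma subunit, never passed 3 counts. A mean of at least 1 CPM was reached by 40 members in OPCs and 46 in SSCs, and of at least 100 CPM by 6 and 4. Of the 62, 56 passed the filter on low counts in the fit of all 17 libraries, 46 in that of OPCs and 53 in that of SSCs.

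**Figure D1:**
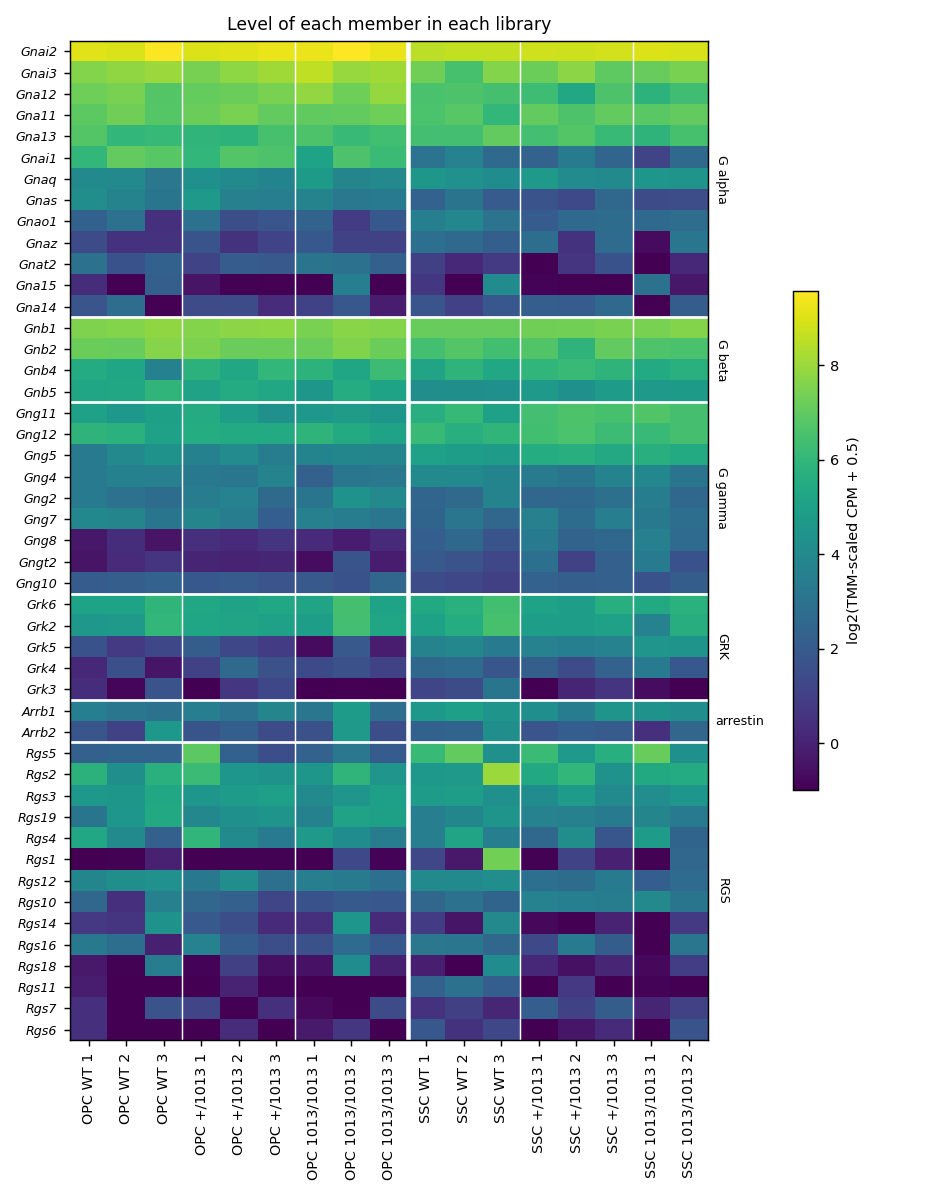
Level of each member with a mean of at least 1 CPM in OPCs or SSCs (rows, by family) in each of the 17 libraries (columns, by group), as log2(TMM-scaled CPM + 0.5) in colour. Gnai2 was the brightest row in every group, Gnai1 was brighter in the 9 OPC columns than in the 8 SSC columns, and Rgs14 and Rgs18 were bright in OPC WT 3, OPC 1013/1013 2 and SSC WT 3.

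To compare genes with each other, levels were divided by the length of the gene's merged exons in kilobases (CPM per kb). On that scale Gnai2 ranked first in both cell types, at 162 ± 23.7 CPM per kb in OPCs (SD, n = 9 libraries) and 116 ± 13.5 in SSCs (SD, n = 8). It made up 43.9% of the summed alpha subunits in OPCs and 48.7% in SSCs. Gnas entered this sum at only 1.18 CPM per kb in OPCs and 0.344 in SSCs. Of its exonic bases, 22.0% overlap genes on the other strand, and the strand setting of the counting is not known. If reads of Gnas were left out, the alpha shares and the first rank of Gnai2 could be affected, which was not tested. Among beta subunits Gnb1 and Gnb2 led, with 42.7% and 42.2% of the beta total in OPCs and 48.8% and 36.3% in SSCs. Among gamma subunits Gng11 led, with 53.5% of the gamma total in OPCs and 63.3% in SSCs. The gamma shares have the same limit, since 72.0% of the exonic bases of Gng10 overlap another gene. Grk2 and Grk6 together held most of the GRK total: Grk6 51.8% and Grk2 43.9% in OPCs, Grk6 48.9% and Grk2 36.2% in SSCs. The SDs of these last shares were 3.88 and 3.89 percentage points for Grk6 and Grk2 in OPCs and 4.12 and 9.37 in SSCs. Both kinases were measured in the same libraries, so these SDs between libraries do not decide their order, which was not tested. The 2 beta-arrestins were far lower, their sum being 3.70 ± 3.83 CPM per kb in OPCs and 3.82 ± 2.06 in SSCs. Arrb2 was at 24.3 and 25.8 CPM in OPC WT 3 and OPC 1013/1013 2, which were high in leukocyte markers. It was at 1.64 to 4.14 CPM in the other OPC libraries, so the near means do not show equal levels.

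The first question was how SSCs and OPCs differ in these genes within one genotype. The members that passed the test in one or more genotypes (edgeR quasi-likelihood test, Benjamini-Hochberg adjusted p under 0.05 over all 20238 genes tested, at least 1.5-fold) were 4 alpha subunits and Gnb5, all lower in SSCs, and 4 gamma subunits and Grk5, all higher in SSCs. In each direction these are 5 of 56 members (8.93%), while 10.4% of all genes were called higher and 11% lower in 1 or more genotypes. In WT, 2 of 56 members tested were higher in SSCs (Gng5 and Gng8), where 5.55% of all genes were, and 3 were lower (Gnai1, Gnai2 and Gnb5), where 5.86% of all genes were. In +/1013, 4 members were higher (Gng5, Gng8, Gng11, Gng12; 6.44% of all genes) and 3 lower (Gnai1, Gna12, Gnas; 6.02%). In 1013/1013, 4 were higher (Gng5, Gng8, Gng11, Grk5; 6.94%) and 3 lower (Gnai1, Gna12, Gnas; 6.12%). These shares of the members, 3.57% to 7.14%, are near those of all genes. A member called in 1 genotype and not in another is not thereby shown to differ between them, since the interaction tests given further on called no member by edgeR. The median log2 difference over the 56 members was 0.48 in WT, 0.01 in +/1013 and -0.01 in 1013/1013, beside 0.17, 0.00 and -0.20 over all genes tested. The medians rest on single libraries: with each left out in turn they ran from 0.10 (without SSC WT 3) to 0.77 (without OPC WT 3) in WT, from -0.21 (without OPC +/1013 3) to 0.27 (without OPC +/1013 1) in +/1013 and from -0.32 (without SSC 1013/1013 2) to 0.46 (without OPC 1013/1013 2) in 1013/1013. The DESeq2 Wald test called more, 13 members in WT (24.5% of those with an adjusted p, where 19.5% of all genes were), 11 in +/1013 (21.6%, all genes 23.1%) and 14 in 1013/1013 (27.5%, all genes 25.3%).

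The promoters of 4 of these members are shown because these genes were called between the cell types, 1 downward and 3 upward in SSCs. Windows run from 250 bases before to 50 after the RefSeq start (GRCm38.p6, read 5′ to 3′ on the gene's strand), and capitals mark the motifs searched on both strands: the GC box GGGCGG, the CCAAT box CCAAT, the TATA box TATAAA and the RUNX core TGTGGT. Gnai1 lies on the minus strand of chromosome 5 (window chr5:18360364-18360663), Gng5 on the plus strand of chromosome 3 (chr3:146499586-146499885), Gng8 on the plus strand of chromosome 7 (chr7:16891536-16891835) and Grk5 on the plus strand of chromosome 19 (chr19:60889499-60889798).
Gnai1: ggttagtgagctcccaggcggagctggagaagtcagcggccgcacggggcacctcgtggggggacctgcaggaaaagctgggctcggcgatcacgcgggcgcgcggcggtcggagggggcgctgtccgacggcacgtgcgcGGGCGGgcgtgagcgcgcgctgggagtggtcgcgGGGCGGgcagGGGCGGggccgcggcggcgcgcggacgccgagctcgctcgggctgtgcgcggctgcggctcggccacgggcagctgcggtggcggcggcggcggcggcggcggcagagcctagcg
Gng5: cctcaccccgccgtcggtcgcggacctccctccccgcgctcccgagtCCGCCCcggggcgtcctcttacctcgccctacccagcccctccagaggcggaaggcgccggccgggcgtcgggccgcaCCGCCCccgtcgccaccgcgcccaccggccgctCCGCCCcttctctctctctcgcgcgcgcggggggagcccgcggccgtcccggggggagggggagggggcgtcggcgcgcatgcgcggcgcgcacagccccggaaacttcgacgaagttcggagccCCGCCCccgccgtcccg
Gng8: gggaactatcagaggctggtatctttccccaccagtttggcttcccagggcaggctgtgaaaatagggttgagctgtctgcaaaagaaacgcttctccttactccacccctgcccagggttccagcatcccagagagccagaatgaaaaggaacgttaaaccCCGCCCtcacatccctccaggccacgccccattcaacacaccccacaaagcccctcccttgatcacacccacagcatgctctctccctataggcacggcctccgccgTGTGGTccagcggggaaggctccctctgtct
Grk5: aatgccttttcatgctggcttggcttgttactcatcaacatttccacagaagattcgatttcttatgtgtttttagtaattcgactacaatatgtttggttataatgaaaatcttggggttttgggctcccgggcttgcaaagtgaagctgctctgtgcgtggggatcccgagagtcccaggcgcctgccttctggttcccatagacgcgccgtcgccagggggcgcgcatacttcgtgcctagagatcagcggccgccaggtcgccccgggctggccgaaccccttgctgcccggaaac
The windows of Gnai1 and Gng5 held 53 and 52 CpG dinucleotides, those of Gng8 and Grk5 8 and 19, with a median of 7 over all 32851 windows of the table and of 20 over the 59 windows of the 44 members matched there. A GC box was found 3 times in the Gnai1 window, 4 times in that of Gng5 and 1 time in that of Gng8, and in 35.7% of all windows. A RUNX core was found 1 time, in the Gng8 window, and in 16.8% of all windows. No CCAAT box (37.4% of all windows) or TATA box (13.6%) was found in the 4, which says only that these letters are not there.

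Gnai1, an inhibitory alpha subunit, showed the widest gap of the alpha subunits called. It was at 64.4, 131 and 113 CPM in WT OPCs and at 7.73, 12.6 and 5.70 in WT SSCs. In +/1013 it was at 63.6, 108 and 98.9 CPM in OPCs and at 4.56, 9.98 and 5.01 in SSCs. In 1013/1013 it was at 35.1, 97.2 and 73.4 CPM in OPCs and at 1.76 and 5.70 in SSCs. No SSC library reached the lowest OPC library, and the gap was called in each genotype: the log2 difference, SSC minus OPC, was -3.57 ± 0.54 (SE; edgeR, adjusted p = 0.00103) in WT, -3.79 ± 0.55 (adjusted p = 0.000507) in +/1013 and -4.20 ± 0.67 (adjusted p = 0.00117) in 1013/1013. Each of these calls stood when any single library of the 2 groups was left out. The gene (ENSMUSG00000057614.6) spans chr5:18265135-18360355 on GRCm38.

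The other 2 inhibitory alpha subunits had smaller differences. Gnai2 was at 551, 509 and 735 CPM in WT OPCs and at 374, 388 and 393 in WT SSCs, a log2 difference of -0.64 ± 0.17 (adjusted p = 0.0267), and without OPC WT 3, SSC WT 1, SSC WT 2 or SSC WT 3 it was no longer called. With the 3 leukocyte-marked libraries left out it was -0.48, not called. In the mutants its difference was -0.34 ± 0.17 (+/1013) and -0.41 ± 0.19 (1013/1013), neither called (adjusted p = 0.215 and 0.177). Gnai3 differed by -0.61 ± 0.30, -0.45 ± 0.30 and -0.93 ± 0.34 in the same order, with no call. Per kilobase, Gnai1 thus made up 10.6% ± 3.66 of the summed Gnai1, Gnai2 and Gnai3 in OPCs (SD, n = 9; 3.82% to 17%) and 1.33% ± 0.805 in SSCs (SD, n = 8; 0.312% to 2.98%). Gnai2 made up 60.9% ± 3.91 and 70.2% ± 5.86, and Gnai3 28.5% ± 4.64 and 28.5% ± 5.89.

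**Figure D2:**
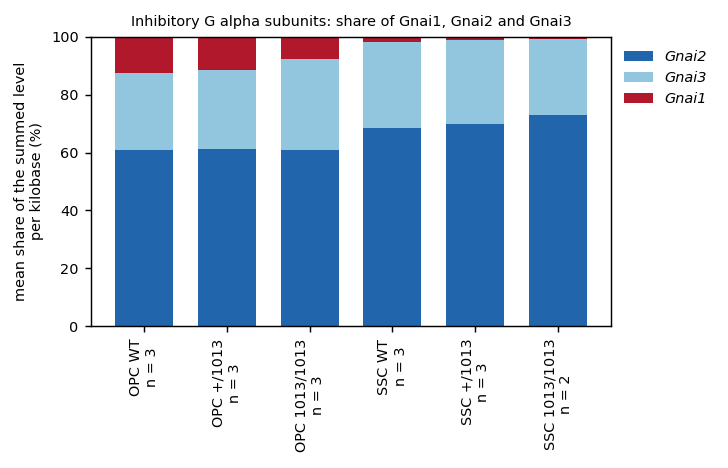
Mean share of Gnai2, Gnai3 and Gnai1 in their summed level per kilobase (y axis, percent) in each group (x axis, with its number of libraries). The Gnai1 segment is 7.53% to 12.6% high in the 3 OPC groups and 0.648% to 1.91% in the 3 SSC groups.

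Gna12, whose product acts through guanine nucleotide exchange factors, was lower in SSCs. It was at 135, 146 and 173 CPM in +/1013 OPCs and at 77.3, 40.7 and 97.1 in +/1013 SSCs, and at 235, 151 and 237 in 1013/1013 OPCs and 57.2 and 81.0 in 1013/1013 SSCs. The log2 difference was -1.08 ± 0.30 (adjusted p = 0.0289) and -1.59 ± 0.35 (adjusted p = 0.00916), and in WT, where OPCs (154, 177 and 108) and SSCs (93.7, 97.1 and 88.8) did not overlap either, -0.65 ± 0.29 with no call (adjusted p = 0.175). The call in +/1013 was lost when any of 4 single libraries was left out (OPC replicates 2 and 3, SSC replicates 1 and 2), and that in 1013/1013 without SSC 1013/1013 replicate 1.

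Gnas, which encodes the stimulatory alpha subunit that activates adenylyl cyclase, was counted at 8.25 to 25.3 CPM in OPCs and 2.05 to 7.88 in SSCs. In +/1013 it was at 25.3, 11.6 and 10.96 CPM in OPCs and 2.72, 2.05 and 5.36 in SSCs, a log2 difference of -2.24 ± 0.49 (adjusted p = 0.00887). In 1013/1013 it was at 12.8, 8.80 and 10.1 CPM in OPCs and 2.24 and 2.33 in SSCs, a difference of -2.21 ± 0.57 (adjusted p = 0.0219) that was not called without OPC 1013/1013 replicate 1 or without either SSC library. In WT the difference was -1.29 ± 0.48 with no call (adjusted p = 0.0994). This locus is complex: 22.0% of its exonic bases overlap exons of Nespas or Gm20721 on the other strand, and strand was not stated to be used in the counting, so its level is uncertain.

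Of the remaining alpha subunits, Gna11 and Gna13 were measured at 64.7 to 177 and 56.4 to 130 CPM over all libraries, and Gnaq at 8.56 to 26.8 CPM. None of these 3, of which Gna11 and Gnaq couple to phospholipase C, was called between the cell types in any genotype.

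**Figure D3:**
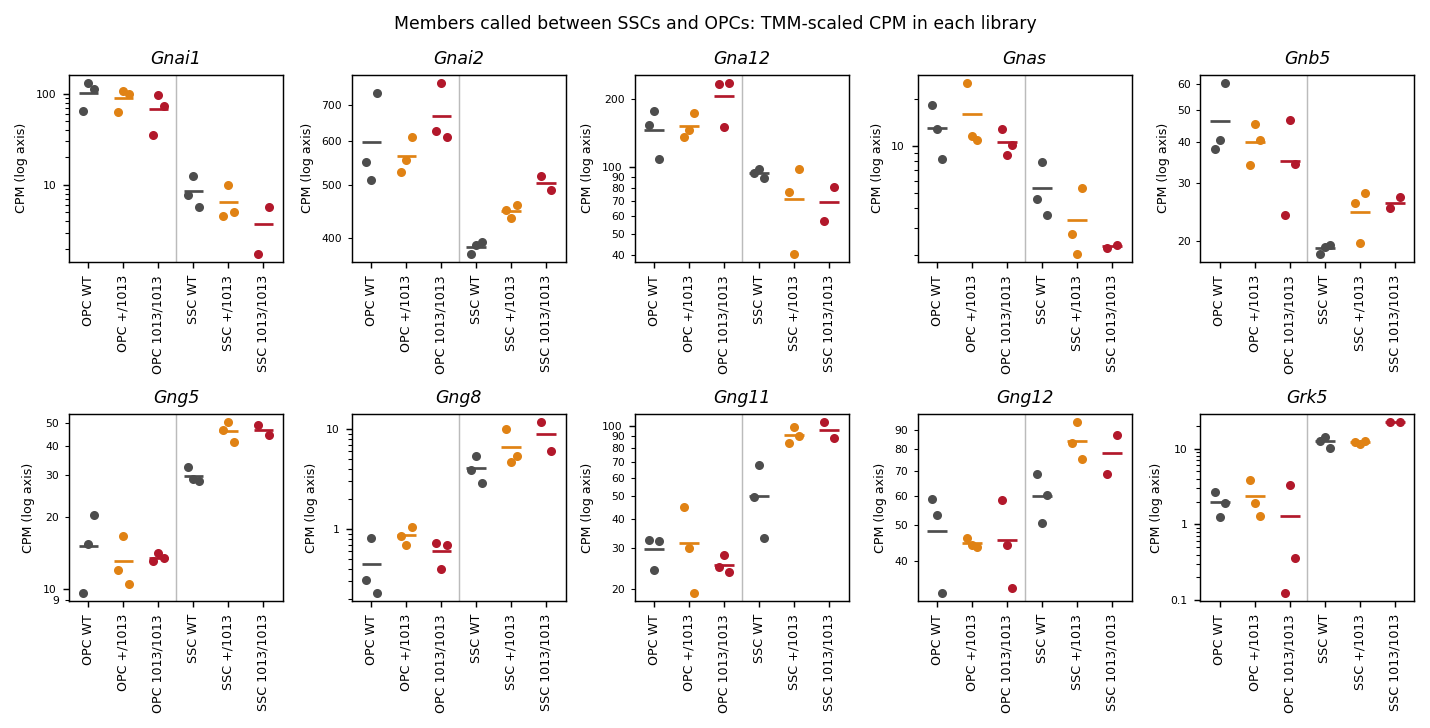
TMM-scaled CPM (y axis, logarithmic, each panel with its own range) of the 10 members called between SSCs and OPCs in one or more genotypes, 1 point per library and a bar at the group mean, by group (x axis; grey WT, orange +/1013, red 1013/1013). Gnai1, Gnai2, Gna12, Gnas and Gnb5 are higher on the left (OPCs), the 4 gamma subunits and Grk5 on the right (SSCs).

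Among beta subunits, Gnb5, which pairs with the RGS proteins of the R7 group rather than with most gamma subunits, was lower in WT SSCs. It was at 38.2, 40.5 and 60.5 CPM in WT OPCs and at 18.3, 19.1 and 19.5 in WT SSCs, a log2 difference of -1.29 ± 0.25 (adjusted p = 0.00510) that was called without any single library. In the mutants its difference was -0.70 ± 0.25 (+/1013) and -0.42 ± 0.28 (1013/1013), not called (adjusted p = 0.0846 and 0.326). Gnb1 differed in WT by -0.53 ± 0.14 (adjusted p = 0.0275), which is under 1.5-fold, and Gnb2 by -0.82 ± 0.26 (adjusted p = 0.0586). Reads of Gnb1 could be split with the 2 processed pseudogenes annotated under its name.

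The gamma subunits anchor the beta-gamma unit to the membrane. Those called in 1 or more genotypes were Gng5, Gng8, Gng11 and Gng12. Gng5 was at 9.62, 15.5 and 20.5 CPM in WT OPCs and at 32.4, 28.8 and 28.5 in WT SSCs. In +/1013 it was at 12.1, 16.6 and 10.5 CPM in OPCs and at 46.4, 50.2 and 41.5 in SSCs. In 1013/1013 it was at 13.1, 14.1 and 13.4 CPM in OPCs and at 48.8 and 44.5 in SSCs. The OPC and SSC ranges did not overlap in any genotype, and the log2 differences were 0.98 ± 0.25 (adjusted p = 0.0223), 1.82 ± 0.26 (adjusted p = 0.000418) and 1.78 ± 0.28 (adjusted p = 0.000961). In WT the call was lost without OPC replicate 1 or 2 or SSC replicate 1 or 2; in the mutants it stood without any single library. A processed pseudogene, Gng5-ps, could share reads with Gng5 (chr3:146499807-146505572).

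Gng8, a gamma subunit best known from sensory neurons, was scarce in OPCs, at 0.230 to 1.05 CPM over the 9 libraries, and at 2.91 to 11.7 CPM over the 8 SSC libraries. It was at 3.93, 5.33 and 2.91 CPM in WT SSCs, at 9.94, 4.70 and 5.36 in +/1013 SSCs and at 11.7 and 6.03 in 1013/1013 SSCs. The log2 difference was 3.16 ± 0.62 (adjusted p = 0.00490) in WT, 2.94 ± 0.61 (adjusted p = 0.00646) in +/1013 and 3.87 ± 0.66 (adjusted p = 0.00201) in 1013/1013, and each call stood without any single library.

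Gng11, the gamma subunit with the highest level per kilobase, was at 32.5, 24.2 and 32.2 CPM in WT OPCs and at 49.8, 67.9 and 33.3 in WT SSCs, a log2 difference of 0.76 ± 0.29 with no call (adjusted p = 0.108). In +/1013 it was at 44.8, 30.1 and 19.3 CPM in OPCs and 84.4, 98.8 and 90.7 in SSCs (1.54 ± 0.29, adjusted p = 0.00378). In 1013/1013 it was at 24.8, 28.0 and 23.7 CPM in OPCs and 103 and 88.7 in SSCs (1.91 ± 0.32, adjusted p = 0.00168). Both mutant calls stood without any single library. Gng12 was at 46.1, 44.1 and 43.8 CPM in +/1013 OPCs and at 83.3, 94.6 and 75.4 in +/1013 SSCs (0.92 ± 0.24, adjusted p = 0.0224), a call lost without either of OPC replicates 2 and 3 or SSC replicates 1 and 2. Its differences of 0.31 ± 0.24 in WT and 0.78 ± 0.26 in 1013/1013 were not called (adjusted p = 0.429 and 0.0686).

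Among the kinases that act on receptor tails, Grk5, a membrane-bound GRK, was the one called. It was at 2.68, 1.25 and 1.93 CPM in WT OPCs and 12.7, 14.3 and 10.2 in WT SSCs. In +/1013 it was at 3.89, 1.94 and 1.27 CPM in OPCs and 12.3, 11.3 and 12.4 in SSCs. In 1013/1013 it was at 0.125, 3.34 and 0.365 CPM in OPCs and 22.1 in each of the 2 SSC libraries. The ranges did not overlap in any genotype, but only the 1013/1013 difference was called (4.11 ± 0.96, adjusted p = 0.0128, standing without any single library); in WT it was 2.67 ± 0.86 (adjusted p = 0.0619) and in +/1013 2.34 ± 0.85 (adjusted p = 0.0903). With the 3 leukocyte-marked libraries left out, Grk5 was called in all 3 genotypes.

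The other GRKs were not called between the cell types in the main edgeR fit. Grk2, a widely expressed cytosolic kinase that beta-gamma units draw to the membrane, was at 24.9 to 86.4 CPM in OPCs (median 35.9) and 12.5 to 90.2 in SSCs (median 32.9). Grk6 was at 33.3 to 87.6 CPM in OPCs (median 35.3) and 29.7 to 82.1 in SSCs (median 47.0). Grk3 was at or under 2.78 CPM in OPCs and at or under 8.16 in SSCs. Grk4 was at 0.679, 2.53 and 0.251 CPM in WT OPCs and 5.39, 6.08 and 3.08 in WT SSCs, which do not overlap. Its log2 difference of 2.07 ± 0.79 was not called in the main edgeR fit (adjusted p = 0.112). It was called by DESeq2, with a minimum of 10 counts in every library and without OPC WT 2. Of the beta-arrestins, Arrb1 was at 11.3, 8.35 and 7.47 CPM in WT OPCs and 24.3, 30.7 and 22.1 in WT SSCs, a log2 difference of 1.504 ± 0.476 that missed the threshold (adjusted p = 0.0571). Arrb1 was called in WT in 4 of the 16 settings run (the main fit and its alternatives), DESeq2 among them. In the mutants it differed by 0.68 ± 0.47 and 0.45 ± 0.52 (adjusted p = 0.363 and 0.583). In 1013/1013 it was at 8.42, 27.4 and 6.30 CPM in OPCs and 20.7 and 17.7 in SSCs. The value of 27.4 is that of the leukocyte-marked library, so the smaller difference there does not show like levels. Arrb2 was at 1.64 to 25.8 CPM in OPCs (median 2.84) and 0.880 to 18.8 in SSCs (median 4.13).

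No RGS gene was called between the cell types, in any genotype, in the main edgeR fit. Of the 16 settings run in WT, Rgs5 was called in 4, Rgs1 in 2 and Rgs11 in 1. In +/1013, Rgs5 and Rgs10 were called in 1 of 16 each. By the DESeq2 Wald test Rgs5 and Rgs20 were called in WT and Rgs5, Rgs10, Rgs17 and Rgs20 in 1013/1013, all higher in SSCs. In 1013/1013 SSCs Rgs17 was at 5.37 and 0.0745 CPM and Rgs20 at 0.752 and 0, so the level of each came from 1 library. Rgs20 was at 0.127 to 0.479 CPM in WT SSCs. Rgs5, a regulator known from pericytes, was at 2.41 to 8.85 CPM in 8 of 9 OPC libraries and at 120 in OPC +/1013 1, and at 19.2 to 141 in SSCs. Rgs4 was at 4.19 to 61.5 CPM in OPCs (median 15.9) and 3.06 to 36.1 in SSCs (median 11.05). Rgs3 and Rgs19 were at 16.2 to 39.9 and 8.05 to 43.2 CPM in OPCs and 16.5 to 29.1 and 10.01 to 21.8 in SSCs. Rgs10 and Rgs16 were at 0.894 to 11.6 and 0.440 to 12.3 CPM in OPCs and 4.84 to 15.4 and 0 to 9.41 in SSCs. Taken over all genotypes, none of these ranges was disjoint. Within a genotype, Rgs5 did not overlap in WT (4.24 to 4.79 CPM in OPCs, 19.2 to 133 in SSCs) or 1013/1013 (3.71 to 8.85 and 19.6 to 141). Rgs10 did not overlap in +/1013 (1.81 to 5.06 and 10.8 to 12.4) or 1013/1013 (2.65 to 3.48 and 8.10 to 15.4). Rgs19 did not in +/1013 (14.4 to 21.7 and 10.01 to 12.5). Rgs11 in WT and Rgs12 in 1013/1013 did not overlap either, and this list is not complete. How many of all genes do not overlap between the cell types was not counted. So the gaps given here and for other members are not shown to be particular to them.

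Several members stood high in the 3 libraries with most leukocyte markers. In Grk2, Grk6, Arrb2, Rgs14 and Rgs18, 5 members in all, these 3 libraries were the 3 highest of 17; they are 8.93% of the 56 members tested, and 2.94% of all 20238 genes tested had the same 3 libraries on top. Grk2 was at 64.8 CPM in OPC WT 3, 86.4 in OPC 1013/1013 2 and 90.2 in SSC WT 3, against 12.5 to 47.2 in the other 14. Arrb2, which encodes beta-arrestin 2, was at 24.3, 25.8 and 18.8 CPM against 0.880 to 5.06. Rgs18, known from platelets and myeloid cells, was at 10.6, 17.1 and 17.2 CPM against 0 to 1.53.

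Rgs14 was at 20.9, 23.0 and 15.1 CPM in the same 3 libraries against 0 to 3.38, and Grk6 at 60.8, 87.6 and 82.1 against 29.7 to 53.0. Rgs1 and Rgs2, which leukocytes express, were at 159 and 254 CPM in SSC WT 3 alone, with at most 5.21 and 74.4 CPM in any other library. Gna15, an alpha subunit of blood cells, was at 4.06, 11.3 and 16.7 CPM in the 3 libraries and at 7.15 in SSC 1013/1013 1, whose leukocyte sum of 915 CPM was the fourth highest. Ptprc, which encodes CD45, was at 52.8, 118 and 120 CPM in the 3 libraries, although CD45+ cells were gated out. All 12 leukocyte markers had over 3 counts in the 3 libraries, and 10 to 12 in the others. The part of leukocytes in these levels was not tested, and in bulk RNA more cells of a type and more RNA per cell cannot be told apart.

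**Figure D4:**
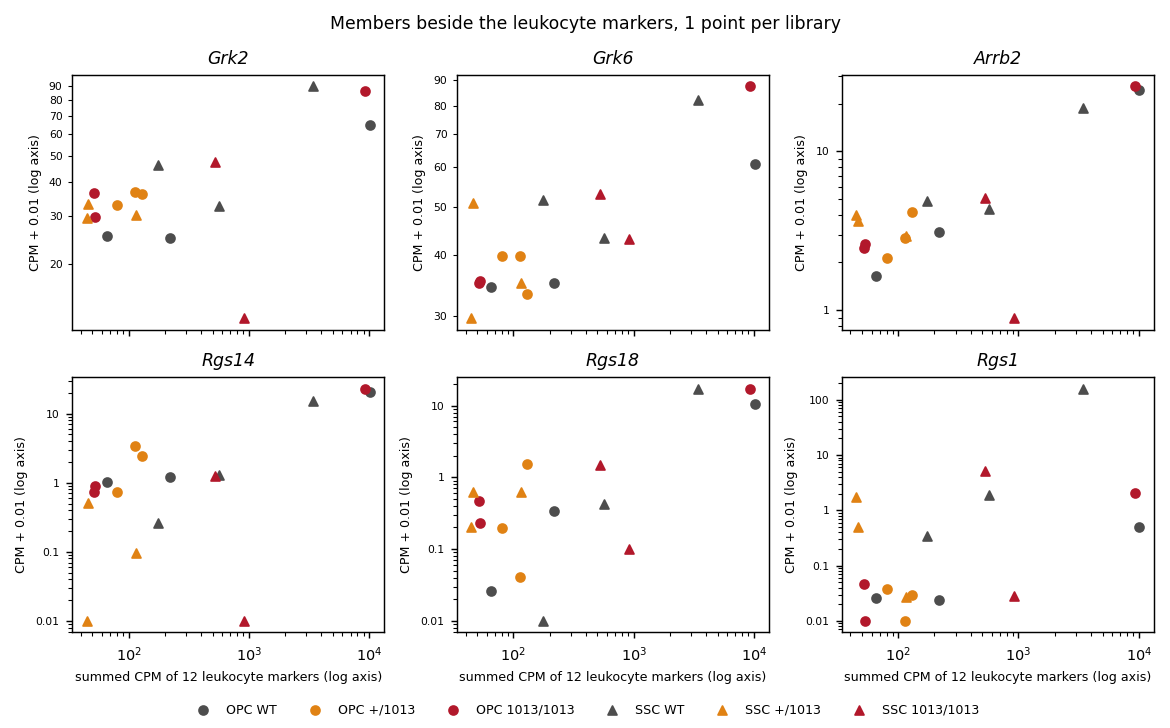
TMM-scaled CPM + 0.01 (y axes, logarithmic) of 6 members against the summed CPM of 12 leukocyte markers (x axes, logarithmic), 1 point per library (circles OPC, triangles SSC; grey WT, orange +/1013, red 1013/1013). The 3 points on the right, at 3442 to 10142 CPM of leukocyte markers, are the highest for Grk2, Grk6, Arrb2, Rgs14 and Rgs18, and Rgs1 is high in 1 of them.

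The second question was whether the desensitization-resistant receptor goes with other levels of these genes. In OPCs no member was called. In +/1013 against WT, 0 of 46 members tested passed the edgeR test, as did 0% of all 16207 genes, and 1 member had an unadjusted p under 0.05 (2.04% of all genes did); DESeq2 called 0 members and 0.334% of all genes. In 1013/1013 against WT, 0 of 46 passed (0.00617% of all genes), and 2 had an unadjusted p under 0.05 (3.38% of all genes); DESeq2 called 0 members and 0.407% of all genes. The median log2 change over the 46 members was -0.11 in +/1013 and 0.06 in 1013/1013, beside -0.004 and 0.01 over all genes, and either sign turned on 1 library: the first was 0.11 without OPC WT 3 and the second -0.21 without OPC 1013/1013 2. Both mutants were set against the same WT libraries.

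In OPCs of +/1013 mice, 0 members had all 3 libraries above WT (2.82% of all genes did) and 1, Gng10, had all below (2.46%). In 1013/1013, 0 had all above (3.98%) and 3, Gng4, Grk3 and Rgs12, all below (3.63%). Rgs12, a large RGS protein that also binds Ras and inhibitory alpha subunits, was at 14.2, 19.0 and 20.1 CPM in WT OPCs, at 9.11, 17.9 and 7.03 in +/1013 and at 10.9, 10.2 and 6.74 in 1013/1013. Its log2 change was -0.66 ± 0.39 (edgeR, unadjusted p = 0.127, adjusted p = 1.00) and -0.94 ± 0.39 (unadjusted p = 0.0398, adjusted p = 1.00), so neither was called. Grk3 was at 0.801, 0.0650 and 2.78 CPM in WT OPCs, at 0, 1.09 and 1.97 in +/1013 and at 0 in all 3 1013/1013 libraries. Its mean in 1013/1013 was at least 25.4-fold below that of WT when the floor of 3 counts per library is put in (at least 9.03-fold without OPC WT 3, a leukocyte-marked library). The bound is on means only, since OPC WT 2 lay near the mean floor of 0.0479 CPM. In 1013/1013 Grk3 was not called by edgeR (unadjusted p = 0.0167).

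Rgs5 had the smallest p in +/1013 OPCs (log2 change 3.22 ± 1.30, unadjusted p = 0.0374, adjusted p = 1.00), and 1 library decided it. WT OPCs were at 4.24, 4.79 and 4.54 CPM, and +/1013 OPCs at 120, 4.43 and 2.41. Without OPC +/1013 replicate 1 the change was -0.41, and with the replicate number as a block it was 1.76 ± 1.57 (edgeR, unadjusted p = 0.303). That library also had the highest sum of the 8 mural and smooth muscle markers, 1321 CPM, against 260 to 1233 in the other OPC libraries, and 48.9 CPM of endothelial markers, against 1.97 to 19.9; their part was not tested. Grk4 (1.502 ± 0.894) and Gnb4 (0.71 ± 0.46) in +/1013, and Gng2 (0.87 ± 0.43) and Gna12 (0.50 ± 0.26) in 1013/1013, completed the members with the smallest unadjusted p, 0.129, 0.159, 0.0762 and 0.0836.

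In SSCs, too, no member was called by edgeR. In +/1013 against WT, 0 of 53 members passed (0.0736% of all 17659 genes did) and 7 had an unadjusted p under 0.05 (17.3% of all genes). In 1013/1013 against WT, 0 of 53 passed (0% of all genes) and 8 had an unadjusted p under 0.05 (18.3% of all genes). DESeq2 called 4 members in +/1013 (Gng10 higher, with Gna15, Gnao1 and Rgs12 lower) and 5 in 1013/1013 (Gng5 and Grk5 higher, with Grk3, Rgs11 and Rgs12 lower). These are 7.84% and 9.80% of the members with an adjusted p, where DESeq2 called 8.15% and 10.8% of all genes. In edgeR, leaving out SSC 1013/1013 replicate 2, which leaves 1 library assumed to vary like the other groups, gave 5 calls: Rgs10 higher, and Gna14, Gnaz, Rgs12 and Rgs16 lower. The median log2 change over the members was -0.40 and -0.30, beside -0.11 and -0.23 over all genes. Without SSC WT 3, which is leukocyte-marked, the medians were -0.17 and -0.02, and with a minimum of 10 counts in every library or the replicate number as a block that of 1013/1013 was 0.05 or 0.004.

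All +/1013 SSC libraries lay above WT in 11 members (15.0% of all genes did, 20.8% of members) and below in 9 (16.2% of all genes, 17% of members). All 1013/1013 libraries lay above in 10 (16.4% of all genes, 18.9% of members) and below in 9 (24.4% of all genes, 17% of members). Both mutants share the WT libraries. Above WT in both were Gnai2, Gnb1, Gnb5, Gng5, Gng10, Gng11 and Rgs10. Below WT in both were Arrb1, Gnal, Gnao1, Grk3, Rgs11 and Rgs12. Arrb1 was at 24.3, 30.7 and 22.1 CPM in WT SSCs, 18.7, 10.9 and 22.0 in +/1013 and 20.7 and 17.7 in 1013/1013. Grk3 was at 1.84, 2.17 and 8.16 CPM in WT SSCs, 0, 0.575 and 1.01 in +/1013 and 0.147 and 0 in 1013/1013. Its highest WT value came from the leukocyte-marked library SSC WT 3.

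Rgs12 had the smallest or next smallest p of the members in each SSC comparison. It was at 16.2, 15.95 and 17.9 CPM in WT SSCs, at 6.82, 6.13 and 9.96 in +/1013 and at 3.92 and 6.09 in 1013/1013. No mutant library reached the lowest WT library. The log2 change was -1.15 ± 0.34 in +/1013 (edgeR, unadjusted p = 0.00986, adjusted p = 0.177) and -1.73 ± 0.40 in 1013/1013 (unadjusted p = 0.00266, adjusted p = 0.120). With SSC WT 3 left out the changes were -1.08 and -1.66. Of the exonic bases of Rgs12 (chr5), 5.50% overlap an antisense gene, Gm43791.

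The gamma subunits Gng5 and Gng11 were higher in mutant SSC libraries, without a call. Gng5 stood at 28.5 to 32.4 CPM in WT SSCs, 41.5 to 50.2 in +/1013 and 44.5 to 48.8 in 1013/1013, log2 changes of 0.60 ± 0.16 and 0.65 ± 0.18 (unadjusted p = 0.00688 and 0.00731, adjusted p = 0.163 and 0.158 by edgeR). Gng11 stood at 33.3 to 67.9, 84.4 to 98.8 and 88.7 to 103 CPM, changes of 0.84 ± 0.26 and 0.95 ± 0.28 (unadjusted p = 0.0115 and 0.01001, adjusted p = 0.184 and 0.167).

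The summed level of 8 osteoblast markers was 8141 to 12111 CPM in WT SSCs against 1947 to 3637 in +/1013 and 1975 to 4534 in 1013/1013, and 97985 to 304950 in OPCs. Ly6a was at 386 to 599 CPM in WT SSCs and 838 to 1450 in mutant SSCs. In both measures the WT libraries lay nearer to OPCs than the mutant ones did. Genotype and these properties of the libraries cannot be told apart in SSCs, and their part in the changes of Gng5, Gng11 and Rgs12 was not tested. Between WT SSCs and WT OPCs, Rgs12 was not called by edgeR (-0.09 ± 0.36, adjusted p = 0.914), which does not show equal levels.

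Grk5 was higher in the 1013/1013 SSC libraries than in every WT one, without a call. It was at 12.7, 14.3 and 10.2 CPM in WT SSCs, at 12.3, 11.3 and 12.4 in +/1013 and at 22.1 in both 1013/1013 libraries, log2 changes of -0.07 ± 0.24 and 0.85 ± 0.27 (unadjusted p = 0.790 and 0.0135, adjusted p = 0.940 and 0.181 by edgeR). The difference between the 2 mutants was not tested. Gna15, the fourth member by p in +/1013 SSCs (unadjusted p = 0.0188), was at 1.16, 0 and 16.7 CPM in WT and at 0.0343, 0 and 0 in +/1013, so that its WT mean came mostly from the leukocyte-marked library SSC WT 3.

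**Figure D5:**
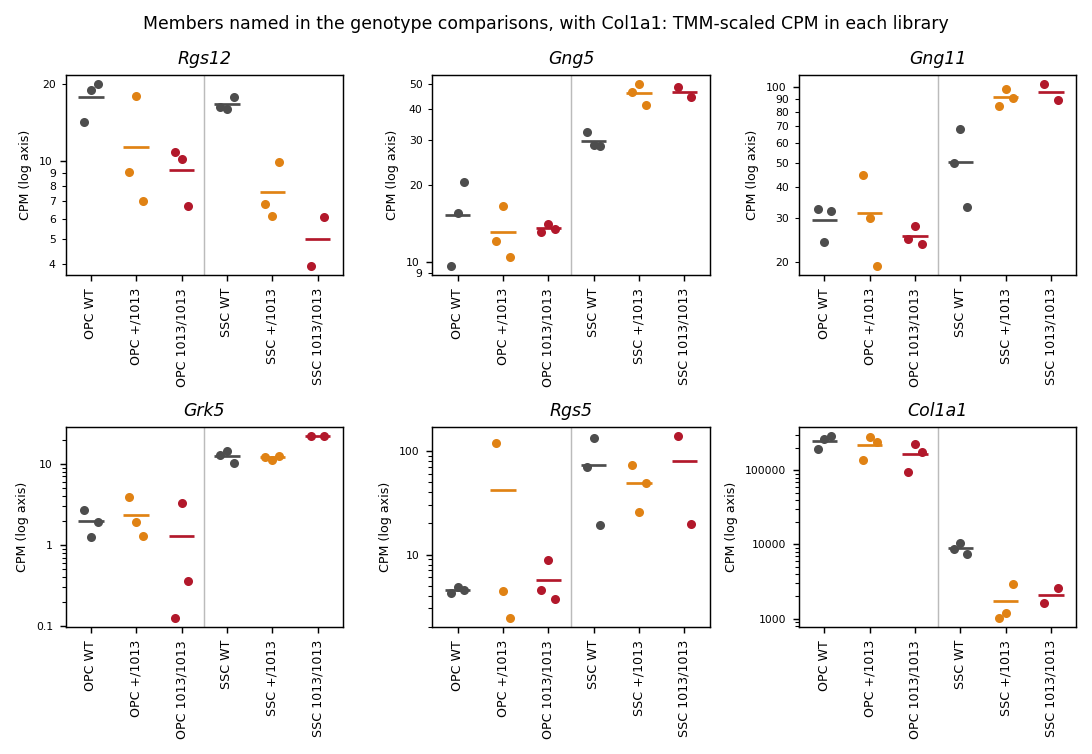
TMM-scaled CPM (y axes, logarithmic) of Rgs12, Gng5, Gng11, Grk5 and Rgs5, with Col1a1 for comparison, 1 point per library and a bar at the group mean, by group (x axis; grey WT, orange +/1013, red 1013/1013). In SSCs the WT points of Rgs12 lie above, and those of Gng5 and Gng11 below, all mutant points; 1 OPC library of +/1013 is at 120 CPM of Rgs5.

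The third question was whether the change with genotype differed between SSCs and OPCs (an interaction in the fit of 17 libraries). For +/1013, 0 of 56 members were called (0.0840% of all genes) and 4 had an unadjusted p under 0.05 (10.6% of all genes): Gng10, Gng3, Gng5 and Rgs5. For 1013/1013, 0 were called (0.153% of all genes) and 6 had an unadjusted p under 0.05 (15.0% of all genes): Gnb1, Gnb5, Gng11, Gng3, Gng5 and Rgs17. DESeq2 called 1 member, Gng10, for +/1013 (2.99% of all genes) and 0 for 1013/1013 (7.03%). Gng10 had the smallest p for +/1013 (log2 difference of changes 1.48 ± 0.58, adjusted p = 0.421 by edgeR), at 2.28, 1.92 and 1.503 CPM in WT SSCs and 4.45, 4.10 and 4.26 in +/1013 SSCs. Of its exonic bases, 72.0% overlap the gene Gm20503 on the same strand, so reads may have been left out as ambiguous.

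Gng3, a neuronal gamma subunit and the other member named for +/1013, was at or under 0.124 CPM in all libraries, too low for a fold change. For 1013/1013 the smallest p were those of Gng11 (1.15 ± 0.43, adjusted p = 0.258) and Gnb5 (0.87 ± 0.37, adjusted p = 0.307). For Rgs12 the difference of changes was not called (-0.48 ± 0.51 for +/1013 and -0.80 ± 0.54 for 1013/1013, adjusted p = 0.829 and 0.505 by edgeR). This does not show that its change was equal in the cell types.

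Other genes of the same pathway were read from a list of 48 genes in 5 sets. None was called in a genotype comparison or interaction in either cell type by edgeR. Of the receptor axis (3 genes), Ackr3, which encodes the decoy receptor of CXCL12, was higher in SSCs in all 3 genotypes (log2 difference 1.07 ± 0.33, 1.68 ± 0.33 and 1.85 ± 0.36; adjusted p = 0.0497, 0.00462 and 0.00444). Cxcl12 was higher in SSCs of both mutants (2.94 ± 0.78 and 3.04 ± 0.83, adjusted p = 0.0248 and 0.0280 by edgeR). In WT its difference of 2.37 ± 0.76 just missed the threshold (adjusted p = 0.0613), so its rise is not shown to be particular to the mutants. Cxcr4 was at 4.48 to 19.4 CPM in OPCs and at 0.110 to 1.30 in SSCs other than SSC WT 3, where it was at 47.3, and was lower in SSCs by the test in +/1013 alone (-5.44 ± 1.47, adjusted p = 0.0267).

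Counts in these sets are small and are to be read against the 5.55% to 6.94% of all genes called in a given direction between the cell types. Of the 18 cyclic AMP genes tested (adenylyl cyclases, phosphodiesterases of family 4, protein kinase A subunits), 2 were higher in WT SSCs (Adcy5 and Pde4a) and 1 lower (Prkar1a), 2 were lower in +/1013 SSCs (Prkar1a and Prkar2b) and 1 in 1013/1013 SSCs (Prkar2b). Of 12 phospholipase C, PI3 kinase and exchange factor genes, Arhgef12, an exchange factor that Gna12 and Gna13 act on, was higher in WT SSCs (1.36 ± 0.30, adjusted p = 0.00988). Prex1, an exchange factor for Rac that beta-gamma units activate, was lower in SSCs of both mutants (-2.97 ± 0.57 and -2.88 ± 0.67, adjusted p = 0.00392 and 0.0128), and Plcb4 was higher in 1013/1013 SSCs (1.87 ± 0.52, adjusted p = 0.0317). None of 9 accessory genes was called, and of 4 arrestin-domain genes tested, Arrdc3 was higher in WT SSCs (1.97 ± 0.51, adjusted p = 0.0236) and Txnip in SSCs of both mutants (1.51 ± 0.44 and 1.65 ± 0.47, adjusted p = 0.0376 and 0.0350). Without a call, Arrdc3 differed by 1.31 ± 0.50 in +/1013 and 1.24 ± 0.55 in 1013/1013, and Plcb4 by 1.31 ± 0.48 in WT and 0.58 ± 0.47 in +/1013. As no interaction was called, a gene called in 1 genotype and not in another is not thereby shown to differ between them.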

How the data were processed

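RNA of 17 libraries (3 mice pooled in each) was made into cDNA with SMART-Seq v4 and sequenced as Nextera XT pairs. The authors removed reads under 50 bases, aligned the rest with STAR to mm10 and deposited raw counts per gene from HTSeq (versions, annotation and strand setting are not given in the sources used here). Whole-number counts were used as deposited. Rows that name no gene (1.15% to 4.15% of reads outside genes, 1.87% to 3.93% ambiguous, 5.10% to 10.4% not uniquely aligned) were left out. Ensembl IDs were matched without version number to GENCODE M21 (GRCm38, the same build): 55154 of 55335 matched. The members and lists were chosen with earlier results of these data known.

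Tests were edgeR (4.0.16) quasi-likelihood fits in R 4.3.3 over all genes passing filterByExpr, TMM-scaled: 1 fit per cell type for the genotype comparisons, and 1 of all 17 libraries for SSC against OPC within a genotype and for the interactions. A call is a Benjamini-Hochberg adjusted p under 0.05 with at least 1.5-fold. Values with ± and no other word are log2 differences with their SE. The test was run on simulated counts with known changes, whose spread was set alike for all genes and not taken from these libraries. That run does not show which changes could be missed here. No 2 libraries of a group agreed within sampling noise (chi-square per degree of freedom at least 128). Floors cover counting error only. Same-numbered libraries of OPC WT and OPC +/1013 deviated together in all 3 pairs by a rule of correlation over 0.1 (0.140 to 0.455). Other-numbered pairs of these groups reached 0.154, so the data do not settle whether they are paired. The main fits treated all libraries as unpaired, and the replicate number as a block was an alternative. Between the 2 mutants, which were not compared but share the fit of a cell type, all same-numbered pairs passed this rule. They were at 0.153 to 0.285 in OPCs, where other-numbered pairs reached 0.0613. In SSCs they were at 0.18 and 0.2, where other-numbered pairs reached 0.0485. So pairing there is not excluded. In the other comparisons made, not all same-numbered pairs passed this rule. The lowest pair was at -0.314 (OPC WT with OPC 1013/1013), -0.292 (SSC WT with SSC +/1013), -0.0962 (SSC WT with SSC 1013/1013) and 0.0458, -0.103 and -0.0940 (OPC with SSC in WT, +/1013 and 1013/1013).

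Named members were those of a fixed core list, up to 6 called members with the largest rise and fall in each SSC against OPC comparison (mean of at least 1 CPM in the higher group), the 4 with the smallest unadjusted p in each genotype comparison and the 2 in each interaction. Alternatives were the DESeq2 (1.42.0) Wald test, its size factors, other low-count filters (none, or 10 counts in every library), a bias-adjusted fit, no fold threshold, the replicate number as a block, other sets of libraries, and each library left out. Rgs14, Rgs19 and the other members named beside a count, outside this rule, were chosen after their values were seen. Promoter windows came from RefSeq (GRCm38.p6), and motifs were searched as exact letters on both strands.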

Additional observations from a re-analysis of the deposited data

How the results depend on the processing

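No named direction changed under any alternative, except that of Rgs5 in +/1013 OPCs, -0.41 without OPC +/1013 replicate 1 and up to 3.77 with any other single library left out. Of 146 recomputed counts of called members, 132 were within 1.5 times the reported one. DESeq2 gave 13, 11 and 14 members between the cell types in WT, +/1013 and 1013/1013, 4 and 5 in +/1013 and 1013/1013 SSCs against WT, and 1 in the +/1013 interaction. In WT, the bias-adjusted fit gave 12 and a minimum of 10 counts in every library 11. With only the 2 groups compared, 2 members (Gng5 and Gng11) were called in 1013/1013. The cause was not tested.

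With each library left out, counts ran from 3 to 5 in WT (3 without SSC WT replicate 1 or 2), 5 to 8 in +/1013 and 5 to 12 in 1013/1013 (12 without SSC 1013/1013 replicate 2), and from 0 to 5 in 1013/1013 SSCs against WT and 0 to 2 in the 1013/1013 interaction, where 5 and 2 came without SSC 1013/1013 replicate 2. The 0 counts of the other 4 comparisons stayed at 0. Leaving out the 3 leukocyte-marked libraries, chosen after seeing the data, gave 5, 10 and 9 calls between the cell types and 0 elsewhere.

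Of 117 recomputed medians over the members, 43 moved by more than the spread, so these medians are not stable.

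The pairing of libraries by replicate number is uneven. With the number as a replicate block, 6, 7 and 8 members were called between the cell types and 0 in the other 6 comparisons, so that no count moved by over 1.5 times.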
